A study of Homo sapiens with 55 samples.

Results

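Cassette exons that lie between short introns were followed through the loss of GPATCH8 or SUGP1 and through 3 recurrent mutations of splicing factors. A cassette exon is an internal exon that is either kept in the mRNA or skipped. Each event in the deposited tables has 1 junction from a neighbouring exon to the cassette exon and a second junction that skips it. The exons described here are those whose skipping junction spans at most 2000 nt, so that both introns and the exon fit into that distance. There were 9357 of them among 48170 cassette exons (19.4%) and 110816 splicing events with coordinates. The value of each is its inclusion, the share of the mRNA that keeps the exon, given by the authors as a fraction with 2 decimals and written here in percent. A difference between groups is given in percentage points.

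Libraries came from 2 human cell lines. K562 is a line from chronic myeloid leukaemia, and 293T is an embryonic kidney line. The SF3B1 panel held 10 K562 libraries, with SF3B1 either WT or carrying the K700E change at its own locus by knock-in. Each genotype had 1 library with the control guide sgRenilla, 2 with sgGPATCH8 and 2 with sgSUGP1, and each library had been sequenced in 2 runs, whose mean was used. The SRSF2 panel held 12 K562 libraries that overexpressed SRSF2 WT or SRSF2 P95H, and the U2AF1 panel held 12 that overexpressed U2AF1 WT or U2AF1 S34F. In both of these panels each form was combined with sgRenilla or sgGPATCH8, with 3 libraries in each group. The 293T panel held 10 libraries of cells without such a mutation, 2 with sgRenilla, 4 with sgGPATCH8 and 4 with sgSUGP1. Guides were numbered 16 and 17 for GPATCH8 and 3 and 4 for SUGP1, each used in 2 of the 293T libraries. In the SF3B1 panel each of these guides had 1 library per genotype, so the spread behind its p-values is between guides. The labels also number the 293T cells WT-1 and WT-2, and what this stands for was not settled. All cells received a guide RNA, and Renilla luciferase, the target of the control guide, is not a human gene. Mutant SRSF2 and U2AF1 were overexpressed, and the labels used here give neither the promoter nor the number of clones. The labels do not say whether replicates came from separate cultures, so p-values measure only the spread between these libraries, which may be technical. The deposited values used here are isoform shares and not expression levels, so neither the loss of GPATCH8 or SUGP1 nor the identity of the cells could be checked on gene levels.

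Splicing of a cassette exon depends on recognition of the branchpoint and the 3′ splice site by the U2 snRNP, of which SF3B1 is a core subunit, and by U2AF, whose small subunit U2AF1 contacts the AG at the end of the intron. SRSF2 is an SR protein that binds exonic enhancers, and its P95H form is known to favour exons with CCNG over exons with GGNG. GPATCH8 and SUGP1 are G-patch proteins, a class that activates DEAH-box helicases of the spliceosome; SUGP1 binding is known to be lost in SF3B1 K700E. Where introns are short, splice sites can be paired across the intron as well as across the exon, and very short exons, called microexons, leave little room for the factors that define an exon.

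The sequences below are the exons on which the GPATCH8 and P95H results turn, and 1 SF3B1 target. They were read from GENCODE 29 transcripts after matching the lengths of both introns, and the positions are those of the skipping junction in GRCh37 (hg19), as deposited. First come 4 exons that fell with sgGPATCH8 in the pooled comparison, then 3 that rose, then the TMEM214 exon. Capitals mark the cassette exon, and 20 nt of each neighbouring exon stand beside it in lower case, 5′ to 3′ on the strand of the gene.
UGGT1, 24 nt, chr2:128913161-128914826, + strand: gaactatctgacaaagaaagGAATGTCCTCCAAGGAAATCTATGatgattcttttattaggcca
BAZ2B, 27 nt, chr2:160252345-160253856, - strand: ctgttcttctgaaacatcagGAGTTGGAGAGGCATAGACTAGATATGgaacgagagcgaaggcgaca
ABCA2, 3 nt, chr9:139917504-139918595, - strand: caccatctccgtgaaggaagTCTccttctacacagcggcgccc
MTSS1L, 9 nt, chr16:70712312-70713533, - strand: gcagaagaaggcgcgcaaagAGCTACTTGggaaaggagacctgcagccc
TNK2, 45 nt, chr3:195595580-195596985, - strand: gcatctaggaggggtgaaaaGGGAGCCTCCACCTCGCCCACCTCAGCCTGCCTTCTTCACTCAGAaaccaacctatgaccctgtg
PI4KB, 63 nt, chr1:151265509-151266494, - strand: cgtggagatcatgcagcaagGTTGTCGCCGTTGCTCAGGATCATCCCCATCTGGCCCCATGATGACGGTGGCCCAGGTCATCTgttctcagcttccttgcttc
EHMT2, 102 nt, chr6:31856524-31857005, - strand: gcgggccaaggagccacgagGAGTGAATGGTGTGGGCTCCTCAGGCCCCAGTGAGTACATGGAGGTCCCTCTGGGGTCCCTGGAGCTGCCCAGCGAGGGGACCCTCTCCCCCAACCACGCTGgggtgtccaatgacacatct
TMEM214, 78 nt, chr2:27260570-27261014, + strand: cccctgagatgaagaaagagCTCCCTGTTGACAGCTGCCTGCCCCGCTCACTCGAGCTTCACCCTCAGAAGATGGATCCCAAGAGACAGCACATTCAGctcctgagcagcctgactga

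The next 4 exons changed with SRSF2 P95H and are shown because of the motifs in them. Each is the cassette exon alone, 5′ to 3′ on the strand of the gene. In the first pair, which rose, capitals mark CCNG.
NBEAL2, 81 nt, chr3:47033436-47035427, + strand: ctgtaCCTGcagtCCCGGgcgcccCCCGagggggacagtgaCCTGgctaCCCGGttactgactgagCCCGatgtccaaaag
NFE2L1, 90 nt, chr17:46133960-46134706, + strand: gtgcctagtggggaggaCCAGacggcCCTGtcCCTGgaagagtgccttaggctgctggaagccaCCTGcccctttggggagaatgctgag
In the second pair, which fell, capitals mark GGNG.
WDR45, 105 nt, chrX:48934409-48935496, - strand: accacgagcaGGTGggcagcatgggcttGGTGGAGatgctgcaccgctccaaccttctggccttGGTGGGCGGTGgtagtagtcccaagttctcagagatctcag
RHOT2, 54 nt, chr16:718699-720123, + strand: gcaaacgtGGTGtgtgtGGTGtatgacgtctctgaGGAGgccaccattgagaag

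The 9357 exons lay on 8038 distinct skipping junctions. A junction of 1 member was the rule (6965 junctions), and the fullest held 9 members, so members that share a junction are not independent. Of the members, 9040 lay in 4945 named genes and 8550 in protein-coding genes, while 275 were in lincRNA or antisense genes and 203 in pseudogenes. The skipping junction spanned 1104 nt at the median, with quartiles of 699 and 1522 nt. Exon length was found for 7814 members (83.5%), with a median of 106 nt and quartiles of 73 and 150 nt. The median was 113 nt both for exons with a skipping junction over 2000 and up to 10000 nt (mid-span exons) and for those with a longer one (long-span exons). A multiple of 3 nt, which keeps the reading frame when the exon is skipped, was found for 41.9% of members with a known length, against 43.7% of mid-span and 40.5% of long-span exons. The intron before the exon had a median of 387 nt and the intron after it 362 nt.

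Some libraries stood apart. In the U2AF1 panel, each of the 4 libraries numbered 1 differed from the others of its group by a mean of 7.52 to 8.46 points per member, while replicates 2 and 3 differed by 5.42 to 5.82 points. In the SF3B1 panel, 19 members (18 skipping junctions) shifted by more than 30 points in the same direction between run 1 and run 2 in 8 of the 10 libraries, and in neither of the K700E sgSUGP1 libraries. For these members the second run of the K700E sgSUGP1 libraries looked like a first run. Counts of called exons without the U2AF1 libraries numbered 1, or without the sgSUGP1 libraries for K700E, stand beside the counts with them. The median SD between libraries of a group was 1.77 points with SF3B1, where it is between guides, 2.12 to 2.83 in 293T, 2.52 to 2.89 with SRSF2 and 3.79 to 4.04 with U2AF1. Since SF3B1 values are means of 2 runs, their SD cannot be set against those of the other panels. Single runs of 2 libraries of an SF3B1 group differed by a mean of 5.83 to 6.79 points per member. Read depth behind single values is unknown, since the files hold no counts.

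Inclusion ran from mostly kept to mostly skipped within every library. The median over members lay between 64 and 68.5% in SF3B1 libraries, and between 64 and 67% in those of 293T. It was 71 to 76% in SRSF2 and 71 to 78% in U2AF1 libraries. In each of the SRSF2 libraries 29.7 to 32.6% of members were at 95% inclusion or more, and 22.6 to 23.8% were at 5% or less. The rest showed both isoforms. A value in every library of its panel was present for 7175 members with SF3B1, 7088 in 293T, 7046 with SRSF2 and 6818 with U2AF1.

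The shorter the skipping junction, the higher was inclusion. In the SRSF2 panel, exons with a junction of at most 500 nt had a median inclusion of 92.1% (878 exons), those over 500 and up to 1000 nt 78.2% (2304) and those over 1000 nt 57.5% (3864). The same order was found in the SF3B1 panel, with 85.2, 70.2 and 53.6%, in the U2AF1 panel, with 90.2, 78.5 and 58.4%, and in 293T, with 85.3, 70.2 and 52.2%. In the SRSF2 panel mid-span exons stood at 62.3%, above the class over 1000 nt, and long-span exons at 50.8%, below it. Exon length went with inclusion as well. Microexons, taken here as exons under 28 nt, had a median of 10.8% in the SRSF2 panel (169 exons), exons of 28 to 50 nt 49.2%, those of 51 to 150 nt 82.8% and longer ones 81%. Microexons stood at 17.4% in the SF3B1 panel and 10.2% in 293T. An exon whose upstream intron was the longer of the pair had a median of 83.1%, against 76.7% for the others in the SRSF2 panel, and 75.8 against 69.0% in the SF3B1 panel. These are descriptions of the levels, without a test.

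The comparison that drew on most libraries asked what the loss of GPATCH8 did in every setting of the study at once. A single fit over all 44 libraries took the difference between sgGPATCH8 and sgRenilla in each of 7 backgrounds, SF3B1 WT and K700E, SRSF2 WT and P95H, U2AF1 WT and S34F, and 293T, and averaged them with equal weight. This pooled comparison was added after single-background values had been seen. A member entered it if it had a value in every library and if its group means were neither all under 5% nor all over 95%, which held for 4467 of the 9357 members. Changes were tested with limma on the log2 ratio of inclusion to skipping, with an offset of 0.01 on both, and p-values were adjusted by the Benjamini-Hochberg method over all events of every type. An exon is said to have risen or fallen where adjusted p was under 0.05 and the difference was at least 5 points.

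Of the 4467 exons, 95 changed with sgGPATCH8, 61 upward and 34 downward, in 85 genes. That is 2.13% of members, while over all 46127 events tested 1.91% were called, 0.963% risen and 0.945% fallen. Members therefore stood at 1.37% risen and 0.761% fallen, close to this background. Mid-span cassette exons were called at 2.57% and long-span ones at 1.65%. At an unadjusted p under 0.05 there were 659 members, and the median difference over all tested members was 0.07 points. Of the 95, 71 moved in the same direction in all 7 backgrounds, 22 in 6 of them and 2 in fewer. Since these 7 differences make up the average, each panel was also left out and looked at alone. When the 293T panel was left out, 91 members were called, and 74 of the 88 with a value there went the same way in 293T (84.1%, against 55.8% over all members). When the SRSF2 panel was left out, 48 were called, of which 43 of 45 kept their direction in SRSF2 WT (95.6 against 58.3%) and 44 of 45 in SRSF2 P95H (97.8 against 58.4%). Without the SF3B1 panel 102 were called, and 91 of 101 went the same way in SF3B1 WT (90.1 against 57.3%). Without the U2AF1 panel 113 were called, and 94 of 110 went the same way in U2AF1 WT (85.5 against 55.8%). With the 4 U2AF1 libraries numbered 1 left out, 148 members were called, among them 90 of the 95.

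The largest falls were in microexons. The 27-nt exon of BAZ2B, a bromodomain protein thought to act in chromatin remodelling, dropped in every background. With sgRenilla its inclusion was 70% in SF3B1 WT, 71.5% in K700E, 73, 68 and 77% in SRSF2 WT, 65, 74 and 80% in P95H, 73, 85 and 94% in U2AF1 WT, 70, 92 and 77% in S34F and 62 and 62% in 293T. With sgGPATCH8 it was 33.5 and 20%, 21.5 and 29%, 20, 24 and 28%, 27, 22 and 32%, 18, 36 and 30%, 21, 38 and 40%, and 30, 35, 26 and 27% in the same order. Every sgGPATCH8 library was below every sgRenilla library of all 7 backgrounds, so the groups did not overlap. The averaged difference was -45.6 points (log2 ratio -2.90 ± 0.23 SE, adjusted p = 1.88e-10, limma). With sgSUGP1, BAZ2B stood at 69.5 and 60% in SF3B1 WT, 73.5 and 80% in K700E and 64, 78, 71 and 55% in 293T, near the sgRenilla libraries. Some SF3B1 panel values are means of unlike runs. K700E read 54 and 89% with sgRenilla and 4 and 39% in sgGPATCH8 replicate 1, and the SF3B1 WT sgSUGP1 libraries 59 and 80% and 46 and 74%.

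UGGT1 is the glucosyltransferase that senses misfolded glycoproteins in the endoplasmic reticulum. Its 24-nt exon was at 59.5% in SF3B1 WT with sgRenilla and at 24.5 and 17% with sgGPATCH8, and at 66.5% against 27.5 and 18% in K700E. In SRSF2 WT it went from 77, 76 and 73% to 38, 26 and 25%, and in P95H from 87, 89 and 88% to 21, 24 and 24%. In the U2AF1 panel the library numbered 1 was the lowest of each group, and the exon went from 48, 76 and 77% to 20, 37 and 38% in WT and from 43, 71 and 72% to 16, 22 and 23% in S34F. In 293T the 2 sgRenilla libraries were at 92 and 97%, guide 16 gave 66 and 64% and guide 17 gave 62 and 51%. Within each background the groups did not overlap, and the averaged difference was -43.4 points (log2 ratio -2.96 ± 0.19 SE, adjusted p = 3.81e-12, limma). In SRSF2 P95H the drop was 65.0 points.

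**Figure D1:**
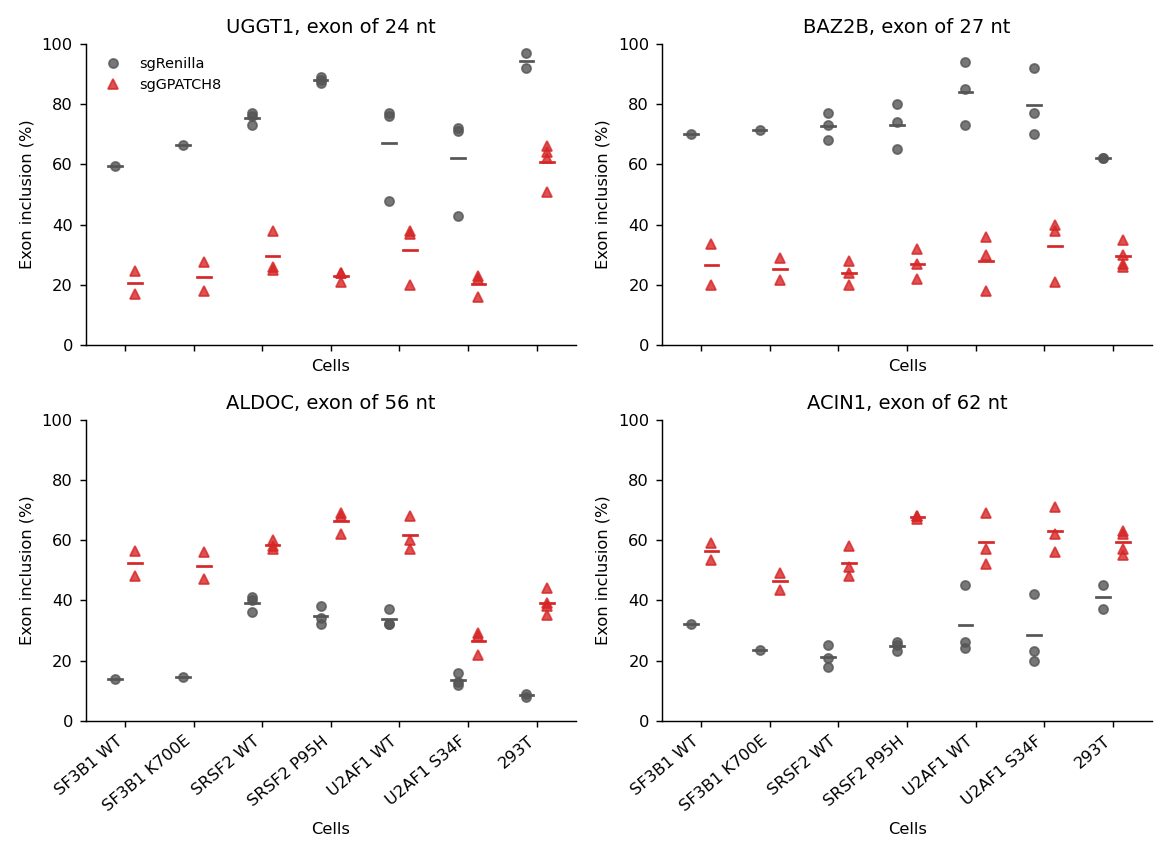
Inclusion in percent (vertical axis) of UGGT1, BAZ2B, ALDOC (56 nt) and ACIN1 in every sgRenilla library (circles) and sgGPATCH8 library (triangles) of the 7 backgrounds (horizontal axis), with a line at each group's mean. UGGT1 and BAZ2B are lower and ALDOC and ACIN1 higher with sgGPATCH8 in all 7 backgrounds.

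A further 7 microexons fell. The 3-nt exon of ABCA2, a lipid transporter, adds a single codon. In SRSF2 P95H it went from 86, 88 and 86% to 50, 48 and 56%, and in SRSF2 WT from 90, 89 and 87% to 81, 70 and 68%. Its averaged difference was -20.7 points (log2 ratio -1.46 ± 0.22 SE, adjusted p = 4.59e-05, limma), but the groups overlapped in U2AF1 WT (63, 82 and 73% against 24, 66 and 32%) and in S34F (76, 71 and 50% against 47, 60 and 58%), and in 293T the 34 and 26% with sgRenilla lay close to the 24, 25, 11 and 12% with sgGPATCH8. The 9-nt exon of MTSS1L, an I-BAR protein that bends membranes, went from 61, 68 and 61% to 40, 47 and 41% in P95H. Its averaged difference was -14.2 points (log2 ratio -0.84 ± 0.10 SE, adjusted p = 1.05e-06, limma), while in 293T the groups overlapped (21 and 15% against 13, 15, 18 and 18%). MROH1 (27 nt) fell by 14.7 points on average, although it was 2.0 points higher in 293T. MON2 (18 nt), a regulator of Golgi traffic, fell by 9.3, RAPGEF2 (24 nt), an exchange factor for Rap GTPases, by 6.9, PTPRS (12 nt), a receptor tyrosine phosphatase, by 6.6 and SIDT2 (12 nt), a lysosomal membrane protein, by 5.3 points. No microexon rose.

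Called exons were short on the falling side. Of the 34 that fell, 33 had a known length, with a median of 51 nt; 24 of these (72.7%) were at most 66 nt long, against 18.7% of all 3731 tested members with a known length. Of the 61 that rose, 50 had a known length, with a median of 101 nt, and 13 (26%) were at most 66 nt long. The limit of 66 nt is not among the length classes given below. It equals the length of a fallen exon, that of RFXANK, so the shares at this limit are no independent evidence of shortness. The 45-nt exon of FOXM1 is counted with each of its members. Members not called had a median of 109 nt. By class, 9 of 91 microexons fell (9.89%) and 0 rose. Of 266 exons of 28 to 50 nt 7 fell and 6 rose, of 2437 exons of 51 to 150 nt 16 fell and 34 rose, and of 937 longer exons 1 fell and 10 rose. A multiple of 3 nt was found for 27 of the 33 fallen (81.8%) and 29 of the 50 risen exons (58%), against 41.1% of those tested. Microexons outside short introns moved the same way: 22 of 149 fell and 1 rose among mid-span exons, and 4 of 70 fell and 1 rose among long-span ones. Most microexons of short introns did not change: over all 91 the median difference was -0.20 points and 51 (56%) were lower, against 47.3% of all members. Only 4 of 90 microexons fell when the SRSF2 panel was left out, and 11 of 93 fell with 1 risen when the U2AF1 libraries numbered 1 were left out. No test of a difference between length classes was made.

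**Figure D2:**
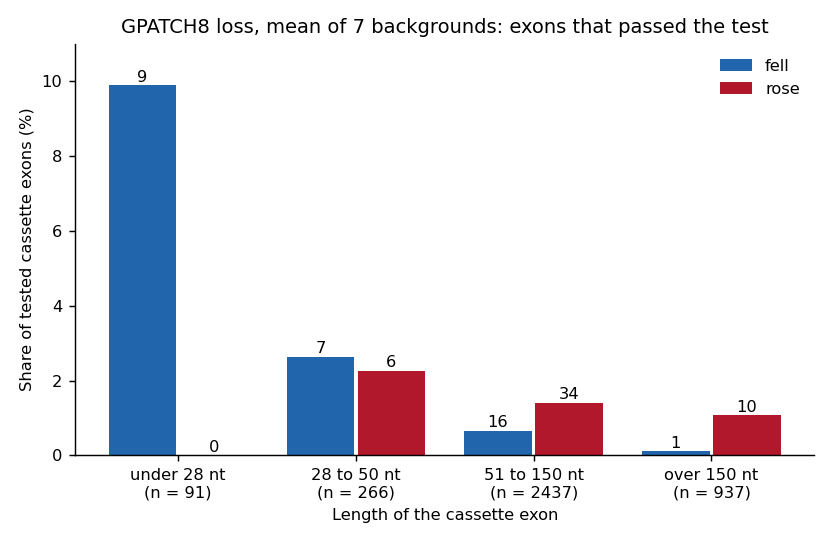
Share of tested short-intron cassette exons that fell or rose with sgGPATCH8 in the comparison over 7 backgrounds (vertical axis, percent), by exon length class in nt (horizontal axis). The fallen share is 9.89% under 28 nt and 0.107% over 150 nt.

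Exons over 28 nt fell as well. MYL6, the essential light chain of non-muscle myosin, has a 45-nt exon that separates its smooth-muscle from its non-muscle form. It went from 39 and 39% to 16, 15, 12 and 12% in 293T, from 27.5% to 12 and 8% in SF3B1 WT, and from 13, 15 and 14% to 6, 6 and 5% in SRSF2 WT. No library with sgGPATCH8 reached the sgRenilla libraries of its background, and the averaged difference was -12.6 points (log2 ratio -1.45 ± 0.06 SE, adjusted p = 2.82e-16, limma). PFDN5, a subunit of the prefoldin chaperone, has a 103-nt exon, not a multiple of 3, that was nearly always kept with sgRenilla. It went from 96% to 74 and 81.5% in SF3B1 WT and from 95.5% to 76.5 and 72% in K700E, and from 99 and 99% to 92, 91, 94 and 94% in 293T. In the other K562 backgrounds the difference was also smaller than in the SF3B1 panel. It was -4.0 points in SRSF2 WT, -8.7 in P95H, -8.3 in U2AF1 WT and -9.0 in S34F, beside -6.2 in 293T. The averaged difference was -10.8 points (log2 ratio -1.73 ± 0.09 SE, adjusted p = 4.98e-14, limma).

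The 66-nt exon of RFXANK, a subunit of the RFX complex that switches on MHC class II genes, went from 79, 80 and 77% to 47, 57 and 50% in SRSF2 P95H and from 81, 80 and 82% to 67, 66 and 67% in SRSF2 WT. Its averaged difference was -15.8 points (log2 ratio -0.99 ± 0.12 SE, adjusted p = 1.05e-06, limma). The 45-nt exon of FOXM1, a transcription factor of mitotic genes, went from 46 and 53% to 30, 34, 35 and 33% in 293T and from 62, 64 and 57% to 40, 43 and 36% in P95H, an averaged difference of -16.6 points. A second FOXM1 member, which measures the same exon with another junction, fell by 13.4 points and is not independent of the first. ATP2A1, the calcium pump of fast muscle, has a 42-nt exon that fell by 25.9 points, with more scatter between replicates: 75, 86 and 88% against 51, 57 and 27% in SRSF2 WT. SEC16A (60 nt), a scaffold of COPII export sites, fell by 14.1 points, from 54.5% to 38.5 and 34.5% in SF3B1 WT.

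**Figure D3:**
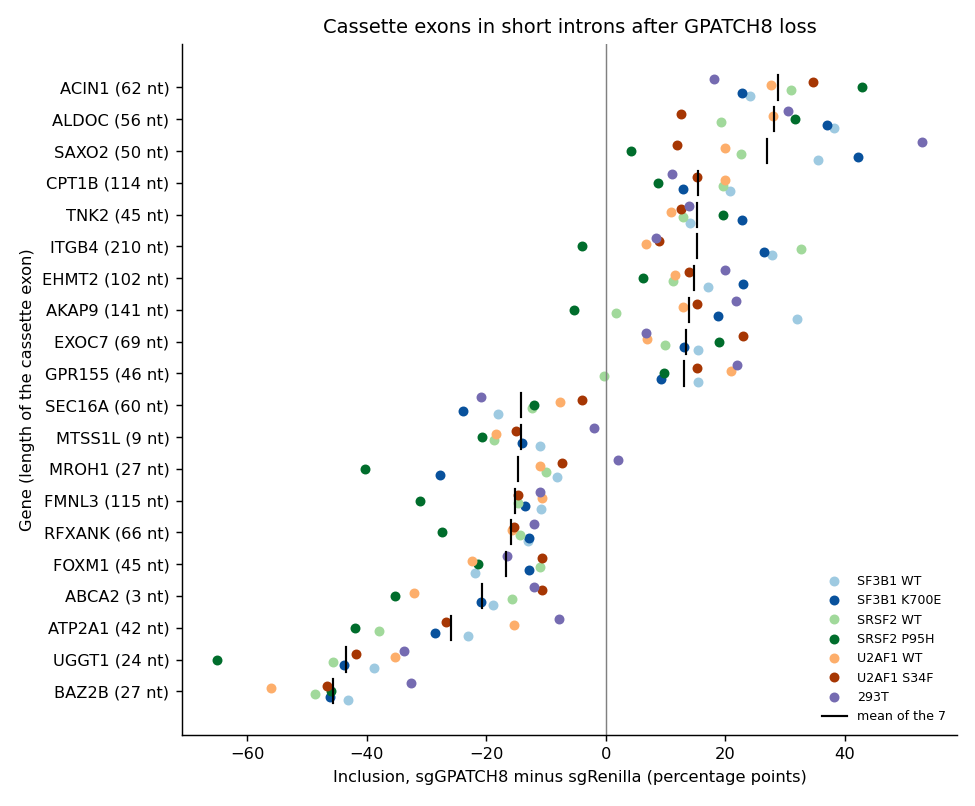
Difference in inclusion between sgGPATCH8 and sgRenilla in points (horizontal axis, negative is lower with sgGPATCH8) for 20 short-intron cassette exons with the largest changes (vertical axis), 1 mark for each of the 7 backgrounds and a line at their mean. BAZ2B and UGGT1 have the lowest means, at -45.6 and -43.4 points.

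Among the exons that rose, that of ALDOC, the brain form of aldolase, had the smallest adjusted p. Its 56-nt exon (skipping junction chr17:26902562-26903819 in GRCh37, - strand) was at 14% with sgRenilla and at 56.5 and 48% with sgGPATCH8 in SF3B1 WT, and at 14.5% against 56 and 47% in K700E. It went from 40, 36 and 41% to 57, 60 and 58% in SRSF2 WT, from 38, 32 and 34% to 69, 62 and 68% in P95H, from 37, 32 and 32% to 68, 57 and 60% in U2AF1 WT and from 16, 13 and 12% to 22, 28 and 29% in S34F. In 293T it went from 8 and 9% to 44, 39, 35 and 38%. The groups did not overlap in any background, and the averaged difference was 28.2 points (log2 ratio 1.94 ± 0.09 SE, adjusted p = 5.76e-16, limma). A 53-nt form of the exon on the same skipping junction, with another 3′ splice site, rose by 18.4 points. With sgSUGP1 the 56-nt exon stayed at 15 and 12.5% in SF3B1 WT, 14 and 13% in K700E and 6, 5, 10 and 9% in 293T.

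ACIN1 encodes acinus, a component of the exon junction complex's periphery. Its 62-nt exon (chr14:23538826-23540636, - strand) went from 25, 23 and 26% to 67, 68 and 68% in P95H, from 18, 25 and 21% to 51, 58 and 48% in SRSF2 WT and from 37 and 45% to 63, 62, 55 and 57% in 293T. The averaged difference was 28.8 points (log2 ratio 1.76 ± 0.14 SE, adjusted p = 4.25e-10, limma). TNK2, a tyrosine kinase activated by Cdc42, has a 45-nt exon that was almost always skipped with sgRenilla, at 1, 2 and 2% in SRSF2 WT, and that reached 15, 14 and 15% with sgGPATCH8. In 293T it went from 3 and 5% to 22, 19, 19 and 12%, and the averaged difference was 15.3 points (log2 ratio 2.21 ± 0.18 SE, adjusted p = 6.35e-10, limma). PI4KB makes phosphatidylinositol 4-phosphate at the Golgi. Its 63-nt exon went from 5, 4 and 4% to 17, 18 and 18% in SRSF2 WT and from 0 and 0% to 5, 7, 3 and 4% in 293T, with an averaged difference of 9.7 points (log2 ratio 1.91 ± 0.12 SE, adjusted p = 3.06e-12, limma).

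EHMT2, the H3K9 methyltransferase G9a, has a 102-nt exon in a skipping junction of fewer than 500 nt. It went from 51 and 62% to 76, 80, 75 and 75% in 293T and from 55.5% to 75 and 70.5% in SF3B1 WT, with an averaged difference of 14.8 points (log2 ratio 1.03 ± 0.11 SE, adjusted p = 8.36e-08, limma). The other rises above 12 points were SAXO2 (50 nt, 27.1 points), CPT1B (114 nt, 15.5), ITGB4 (210 nt, 15.3), AKAP9 (141 nt, 13.9), EXOC7 (69 nt, 13.5), GPR155 (46 nt, 13.2), CDCA3 (91 nt, 12.2) and PDLIM7 (12.1). Of these, ITGB4 and AKAP9 were lower with sgGPATCH8 in SRSF2 P95H (-4.0 and -5.3 points), and GPR155 in SRSF2 WT (-0.3). TIA1, a regulator of alternative splicing, rose by 7.8 points at a 119-nt exon, from 5, 6 and 7% to 19, 17 and 17% in SRSF2 WT.

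Within single backgrounds sgGPATCH8 was called most often in SRSF2 P95H. There 251 of 4035 tested members changed (6.22%), 92 upward (2.28%) and 159 downward (3.94%), against 4.84% over all events, 1.89% risen and 2.95% fallen. In SRSF2 WT 25 changed (0.62%), 18 upward and 7 downward, against 0.491% over all events, 0.207% risen and 0.284% fallen. At an unadjusted p under 0.05 there were 973 members in P95H and 495 in WT. With any 1 library left out the counts were 126 to 148 in P95H and 11 to 14 in WT, the lowest without P95H sgRenilla replicate 1 and WT sgGPATCH8 replicate 2. The larger count in P95H is not a test of a difference: the interaction of P95H and sgGPATCH8 was called for 2 members (0.0496%), against 0.0614% of all events, with 568 at an unadjusted p under 0.05. With 1 library left out the interaction was called for 0 or 1 member.

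The 25 exons of SRSF2 WT moved alike elsewhere, in libraries not used to call them. In SF3B1 WT and in K700E 24 of 25 went the same way, in P95H 22, in U2AF1 WT 22, in S34F 24 and in 293T 19 of 22 with a value. Over all members this share was 52.9 to 57.2%. The 251 exons of P95H gave another picture. In SF3B1 WT 56.7% of them went the same way (53.6% over all members), in 293T 59.2% (53.6%), in U2AF1 WT 61.7% (54.7%), in SRSF2 WT 72.5% (57.2%) and in U2AF1 S34F 85.9% (59.8%). The first 3 shares lay near those of all members and the last well above.

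In the listed gene groups the called share with sgGPATCH8 in P95H lay on both sides of the 6.22% of all members, with small counts throughout. In genes listed as SF3B1 targets 1 rose and 1 fell of 11 tested members, and in those listed as U2AF1 targets 1 and 1 of 12. Of the 19 in genes listed as SRSF2 targets 2 fell. DNA repair genes had 1 of 59 risen, and heme synthesis and mitochondrial iron genes 0 of 14 called. In hnRNP and PTB genes 1 of 16 tested members fell, in genes of the U2 snRNP and 3′ splice site recognition 2 rose and 1 fell of 15, and 0 were called of 12 in SR protein and TRA2 genes and of 10 in CLK and SRPK kinase genes. HNRNPDL, an hnRNP that regulates its own mRNA, had a 105-nt exon at 23, 24 and 24% with sgRenilla and 9, 9 and 10% with sgGPATCH8 (-14.3 points, log2 ratio -1.50 ± 0.12 SE, adjusted p = 0.00018, limma). In SRSF2 WT it went from 32, 33 and 29% to 26, 25 and 26%, a difference that was not called. DDX46, the helicase that works with the U2 snRNP, had a 117-nt exon that fell by 12.3 points, from a mean of 22.0% to 9.7%. EZH2, the H3K27 methyltransferase, fell by 7.7 points at an 82-nt exon, from 14.3 to 6.7%. Of the 15 tested members in snoRNA host genes 3 fell and 0 rose. SNHG1 (51 nt) went from 77, 82 and 82% to 59, 56 and 58%, SNHG8 (194 nt) from a mean of 22.0% to 11.3% and NOP56 (90 nt) from 99 to 88.7%. Among the rises of this comparison, PTS (23 nt), an enzyme of tetrahydrobiopterin synthesis, went from 18.3 to 56%, and U2AF1L4 (113 nt), a paralogue of U2AF1, from 52.7 to 70.0%. The PTS exon is thus a microexon that rose. Of 88 microexons tested in P95H, 2 rose and 6 fell with sgGPATCH8. ASXL1 (153 nt), a Polycomb-associated protein, fell from 61.3 to 45%. In SRSF2 WT, TMEM116 rose from 7.3 to 34.7%, and SNHG8 fell from 23.3 to 13.3%.

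In the other 5 backgrounds few or no members passed the threshold on their own. In SF3B1 WT limma called 0 of 4741 members (0.0059% of all events), with a lowest adjusted p of 0.187 and 356 members at an unadjusted p under 0.05. In K700E it called 0 (0.0138% of all events), with a lowest adjusted p of 0.133 and 412 members at an unadjusted p under 0.05. In both, ALDOC (56 nt) had the smallest p, with differences of 38.2 and 37.0 points. In U2AF1 WT 0 of 3866 were called (0.0322% of all events; 188 at an unadjusted p under 0.05; lowest adjusted p 0.0889, limma), 2 with the replicate block, both downward, and 0 without the libraries numbered 1 (324 at an unadjusted p under 0.05). In U2AF1 S34F 1 was called (0.0345% of all events): STAG3L3 (108 nt), an expressed pseudogene of the cohesin family with near-identical copies whose reads may be shared, went from 52, 39 and 39% to 93, 85 and 88% (adjusted p = 0.0388, limma). With the libraries numbered 1 left out, limma called 0 in S34F (542 at an unadjusted p under 0.05), and with the replicate block it called 2, STAG3L3 not among them.

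In 293T 4 of 4474 members were called with sgGPATCH8 (0.0673% of all events), with 411 at an unadjusted p under 0.05. ALDOC (56 nt) rose by 30.5 points (adjusted p = 0.0169, limma), MYL6 fell by 25.2 (adjusted p = 0.0296), PFDN5 fell by 6.2 (adjusted p = 0.0377) and CTSK, the collagen-degrading cathepsin K, rose by 10.2 (adjusted p = 0.0377). These p-values rest on the spread between the 2 libraries of a guide, and they were lost when any 1 library was left out.

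SRSF2 P95H was compared with SRSF2 WT to ask which exons the mutant form moves. With sgRenilla 60 of 4035 members changed (1.49%), 36 upward (0.892%) and 24 downward (0.595%), in 56 genes. Over all events 1.08% were called, 0.482% risen and 0.598% fallen. At an unadjusted p under 0.05 there were 674 members. With any 1 of the 6 libraries left out 8 to 12 members were called, of which 6 to 9 were among the 60, and with the replicate block 8 were called, all among the 60. NBEAL2, the protein missing in gray platelet syndrome, had an 81-nt exon that was at 19, 18 and 17% in WT and 46, 44 and 43% in P95H (26.3 points, log2 ratio 1.81 ± 0.14 SE, adjusted p = 0.0012, limma). NFE2L1, a transcription factor of proteasome genes, rose at a 90-nt exon from 26, 26 and 27% to 42, 41 and 43% (15.7 points, log2 ratio 0.99 ± 0.11 SE, adjusted p = 0.00685, limma). INTS3, an Integrator subunit known as a target of mutant SRSF2, went from 11, 12 and 12% to 25, 26 and 33% at a 90-nt exon (16.3 points, adjusted p = 0.0184, limma). ITGB4, an integrin of hemidesmosomes, went from 25, 38 and 25% to 60, 57 and 59% at a 210-nt exon (29.3 points, adjusted p = 0.0266, limma).

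Among the exons that fell, RHOT2, a GTPase of the mitochondrial outer membrane, went from 88, 91 and 90% to 76, 75 and 77% at a 54-nt exon (-13.7 points, log2 ratio -1.38 ± 0.19 SE, adjusted p = 0.0135, limma). WDR45, an autophagy protein, went from 64, 68 and 70% to 53, 50 and 49% at a 105-nt exon (-16.7 points, adjusted p = 0.0236, limma). FES, a tyrosine kinase of myeloid cells, had the largest fall, at a 210-nt exon that went from 82, 88 and 79% to 40, 49 and 36% (-41.3 points, adjusted p = 0.0479, limma). A 174-nt exon of FES was at 93, 89 and 94% in WT and 39, 44 and 82% in P95H, so that P95H replicate 3 lay near the WT libraries. ETV1 fell by 17.3 points. Of the 12 tested members in SR protein and TRA2 genes 1 rose and 2 fell. SRRM2 (95 nt) rose from a mean of 4.0 to 9.7%, SRRM1 (143 nt) fell from 11.3 to 4.3% and SRSF7 (449 nt), an exon with a premature stop in known transcripts, fell from 30 to 21.7%. Among the 19 tested members in genes listed as SRSF2 targets 3 rose and 2 fell. That list was chosen with results of these data known and is not independent evidence.

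The exons that rose with P95H held more CCNG and fewer GGNG than those that fell. Motifs were counted as CCNG and GGNG, with N any base, on the strand of the exon, with overlapping matches counted, over the exon alone. The 27 risen exons with a sequence held 3.77 CCNG per 100 nt, the 20 fallen ones 1.83 and the 3168 that were not called 3.00. For GGNG the values were 2.17, 2.95 and 2.45. A CCNG was present in 96.3% of risen, 70.0% of fallen and 87.3% of uncalled exons, and in 85.8% of all 7573 members with a sequence. A GGNG was present in 74.1, 95 and 80.5%, and in 78% of all members. The exons printed above hold 8 CCNG and 3 GGNG in NBEAL2, 4 and 4 in NFE2L1, 0 and 6 in WDR45 and 0 and 3 in RHOT2, and capitals mark only 1 of the motifs in each. GC content was 57.8% in risen, 52.8% in fallen and 56.7% in uncalled exons, and its part in these shares was not tested. For P95H with sgGPATCH8 the CCNG density was 2.77 in risen, 2.66 in fallen and 3.02 in uncalled exons, so the contrast between risen and fallen was smaller there. GGNG density was 2.16, 2.95 and 2.44. These are descriptions, without a test, of calls of which most were lost when 1 library was left out.

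With sgGPATCH8 in both forms, P95H differed from WT at 221 of 4035 members (5.48%), 78 upward (1.93%) and 143 downward (3.54%), against 4.06% over all events, 1.73% risen and 2.33% fallen. At an unadjusted p under 0.05 there were 998. With any 1 library left out 105 to 118 were called, of which 99 to 107 were among the 221. Of the 60 exons called with sgRenilla, 49 went the same way with sgGPATCH8 (81.7%, against 58.7% over all members), in libraries that share none with the first comparison. Both comparisons called 22 exons, which is 36.7% of the 60 and 9.95% of the 221. The size of the difference was smaller with sgGPATCH8 for 46 of the 60. Its median was 12 points with sgRenilla and 4.8 points in that direction with sgGPATCH8, but the exons were chosen for the first value, so nothing can be read from this shrinkage.

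**Figure D4:**
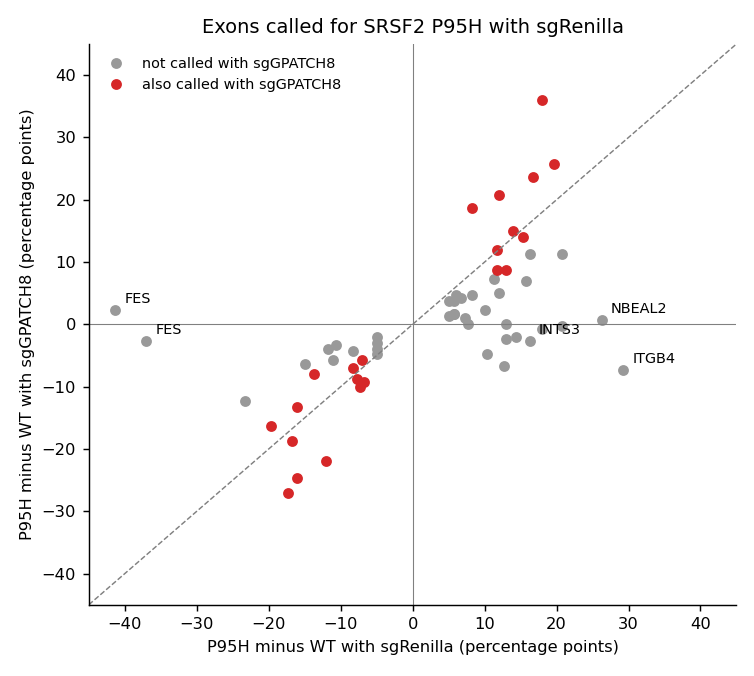
Difference in inclusion between SRSF2 P95H and WT in points with sgRenilla (horizontal axis) and with sgGPATCH8 (vertical axis) for the 60 short-intron cassette exons called with sgRenilla, 1 point for each exon, red where also called with sgGPATCH8; the dashed line marks equal values. NBEAL2 lies near 0 on the vertical axis, and 49 of 60 points have the same sign on both axes.

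The interaction term tested that difference for each exon. NBEAL2 was at 23, 20 and 22% in WT and 20, 24 and 23% in P95H when GPATCH8 was targeted, so that the 26.3 points seen with sgRenilla were absent from these libraries. Its interaction was -25.7 points (log2 ratio -1.75 ± 0.19 SE, adjusted p = 0.0224, limma). The second exon past the threshold was a 111-nt exon of HDAC7, a class IIa histone deacetylase (chr12:48189550-48189990, - strand). HDAC7 was at 51, 55 and 53% in WT and 62, 58 and 58% in P95H with sgRenilla, and at 64, 59 and 63% in WT and 42, 42 and 41% in P95H with sgGPATCH8. The sign of the P95H difference was opposite with the 2 guides, with an interaction of -26.7 points (log2 ratio -1.53 ± 0.20 SE, adjusted p = 0.039, limma). Some other exons kept their P95H difference: WDR45 went from 70, 69 and 74% to 51, 55 and 51% with sgGPATCH8, and RHOT2 from 91, 92 and 91% to 83, 81 and 86%. IP6K2, an inositol hexakisphosphate kinase, went from 26, 24 and 29% to 42, 45 and 46% with sgRenilla and from 27, 35 and 37% to 69, 71 and 67% with sgGPATCH8. Others, FES among them, did not keep the P95H difference. The 210-nt exon of FES differed by -41.3 points with sgRenilla and by 2.3 with sgGPATCH8, and its 174-nt exon by -37.0 and -2.7 points. For ITGB4 and INTS3 it was the WT libraries that differed between guides. ITGB4 in WT was at 69, 65 and 52% with sgGPATCH8, and INTS3 at 32, 33 and 25%, both near their P95H levels. The interactions of FES, ITGB4, INTS3, WDR45, RHOT2 and IP6K2 did not pass the threshold.

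SF3B1 K700E was compared with SF3B1 WT averaged over the 3 guide targets, 5 libraries against 5. Of 4741 members 194 changed (4.09%), 151 upward (3.18%) and 43 downward (0.907%), in 169 genes. Over all events 3.35% were called, 2.13% risen and 1.22% fallen. There were 1280 members at an unadjusted p under 0.05, and the median difference was 1.08 points over members and 0.33 over all events. The called share was 6.33% of 600 exons with a skipping junction of at most 500 nt, 3.67% of those over 500 and up to 1000 nt and 3.83% of those over 1000 nt. Among microexons it was 10 of 117 (8.55%). With the 4 sgSUGP1 libraries left out and 6 libraries remaining, limma called 0 of 4713 (lowest adjusted p 0.202, 851 at an unadjusted p under 0.05), while 186 of the 194 still differed by at least 5 points in the same direction. With any 1 library left out 19 to 42 were called, the fewest without K700E sgSUGP1 replicate 1. That range covers 8 libraries, since the single sgRenilla library of each genotype was never left out. The same 6 libraries had helped to choose the 194 exons, so nothing can be read from the 186 that kept direction and size. Of the 194, 4 were among the 19 members that shifted between runs. With sgRenilla alone, 1 library for each genotype, 0 were called (607 at an unadjusted p under 0.05, lowest adjusted p 0.0806, limma; 0.0% of all events).

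COASY and TMEM214 were the clearest cases. COASY makes coenzyme A, and its 132-nt exon (chr17:40714237-40714630, + strand) stood at 9% with sgRenilla and 9.5 and 8.5% with sgGPATCH8 in SF3B1 WT, but at 47 and 45.5% with sgSUGP1. In K700E it was at 41% with sgRenilla, 45.5 and 47% with sgGPATCH8 and 41 and 39% with sgSUGP1. COASY read 31, 35 and 38% in the first run and 51, 56 and 56% in the second of the K700E libraries without sgSUGP1. This step was absent from the K700E sgSUGP1 libraries (40 and 41% in the first run, 42 and 37% in the second). It was present in the SF3B1 WT sgSUGP1 libraries (35 and 36% in the first run, 59 and 55% in the second). The low libraries were thus the SF3B1 WT libraries without sgSUGP1. The K700E and sgSUGP1 differences share the SF3B1 WT libraries. The averaged K700E difference was 21.0 points (log2 ratio 1.77 ± 0.11 SE, adjusted p = 0.00713, limma), and sgSUGP1 in SF3B1 WT gave 37.2 points (log2 ratio 2.99 ± 0.21 SE, adjusted p = 0.0476, limma). The sgRenilla arm of the latter is 1 library, assumed to vary like the other groups, and with either sgSUGP1 library left out or with the replicate block limma called 0 members there (371 to 417 at an unadjusted p under 0.05). In 293T COASY went from 8 and 8% with sgRenilla to 37, 43, 34 and 33% with sgSUGP1 (28.8 points, log2 ratio 2.60 ± 0.23 SE, adjusted p = 0.0314, limma) and was at 6, 7, 7 and 5% with sgGPATCH8. In SRSF2 P95H the exon rose with sgGPATCH8 from a mean of 8.0 to 15.3%.

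TMEM214, a membrane protein of the endoplasmic reticulum, has the 78-nt exon printed above. It was at 4.5% with sgRenilla, 5.5 and 4.5% with sgGPATCH8 and 35.5 and 40% with sgSUGP1 in SF3B1 WT. In K700E the values were 42.5%, 42 and 42.5%, and 52.5 and 48% in that order. The averaged K700E difference was 29.2 points (log2 ratio 2.66 ± 0.13 SE, adjusted p = 0.00713, limma), and sgSUGP1 in SF3B1 WT gave 33.2 points (adjusted p = 0.0476, limma). In 293T TMEM214 was at 2 and 1% with sgRenilla and 15, 8, 17 and 14% with sgSUGP1, a difference of 12 points that was not called (adjusted p = 0.102, limma). A 103-nt form on the same skipping junction rose by 11.8 points with K700E.

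**Figure D5:**
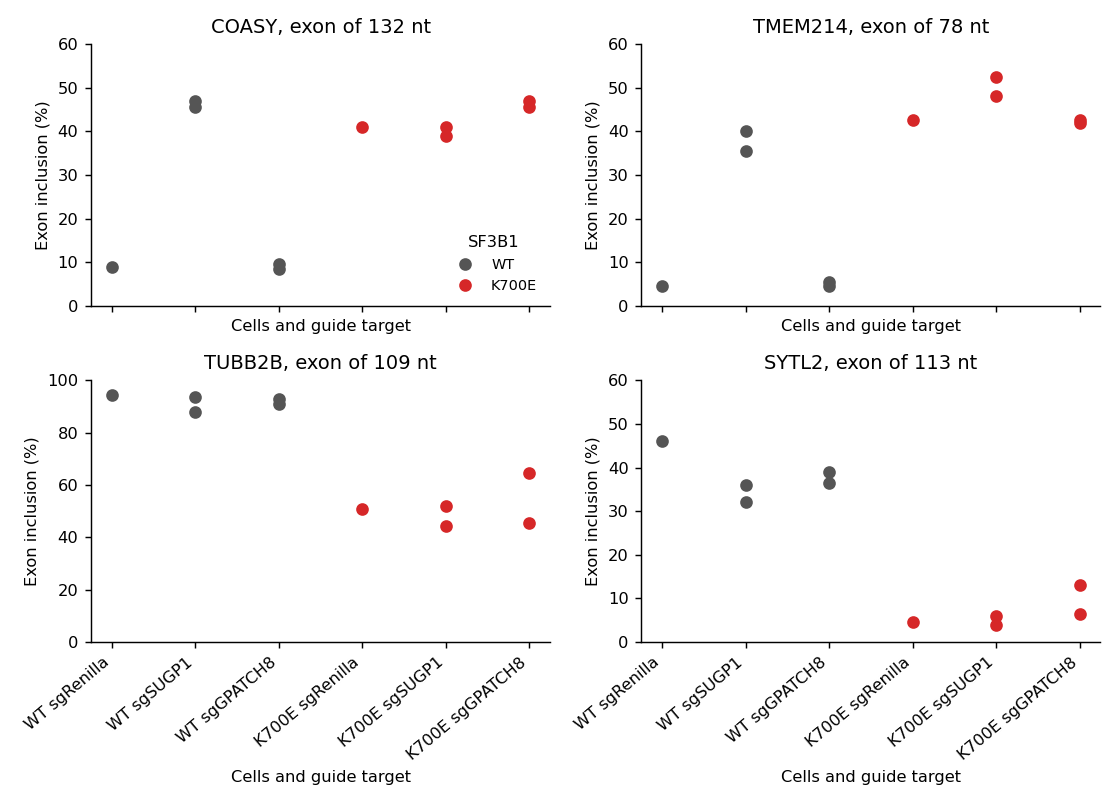
Inclusion in percent (vertical axis) of COASY, TMEM214 (78 nt), TUBB2B and SYTL2 in every library of the SF3B1 panel (horizontal axis, groups by genotype and guide target; the vertical ranges differ between plots). COASY and TMEM214 are high in all K700E libraries and in SF3B1 WT with sgSUGP1, and TUBB2B and SYTL2 are lower in all K700E libraries than in any SF3B1 WT library.

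The largest fall with K700E was in TUBB2B, a beta-tubulin. It has a 109-nt exon (chr6:3226503-3227721, - strand) that was at 94.5, 91, 93, 93.5 and 88% in the SF3B1 WT libraries and 51, 64.5, 45.5, 44.5 and 52% in the K700E libraries. Its averaged difference was -41.0 points (log2 ratio -3.41 ± 0.31 SE, adjusted p = 0.0111, limma). The tubulin genes are near-identical copies, so reads may be split between them. SYTL2, a Rab27 effector, went from 46, 36.5, 39, 36 and 32% to 4.5, 6.5, 13, 6 and 4% at a 113-nt exon (-32.8 points, adjusted p = 0.00801, limma). In neither did the genotypes overlap. EPS8L2 (89 nt) fell by 28.3, LGALS8 (126 nt) by 18.2, CUL7 by 15 points. ALAD (217 nt), the second enzyme of heme synthesis, fell by 14.6 points.

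Among the exons that rose, STAC3 (67 nt) went from 21.5, 14.5, 34, 23 and 23% in WT to 53, 59.5, 54, 55 and 55% in K700E. OBSL1 (276 nt), a cytoskeletal adaptor, went from 19, 17, 21, 17 and 18% to 41.5, 42, 48.5, 42 and 38% (23.8 points, adjusted p = 0.0111, limma). BCOR (54 nt), a Polycomb corepressor, went from 51.5, 49, 48, 50 and 53.5% to 66, 62.5, 64, 68 and 68.5% (15.2 points, adjusted p = 0.0244, limma). ST5 (45 nt) rose by 31.2 points, with 1 WT library far below the others: 33% with sgRenilla and 69, 70, 77.5 and 59% with the other guides. HHIPL2 rose by 30.8, SEPT1 by 28.9, PTPRVP by 27.6, COL4A5 by 26.4 and SLC26A6 by 25.1 points. In genes listed as SF3B1 targets 5 of 15 tested members rose and 0 fell, with a median difference of 3.75 points against 1.08 over all members: COASY, the 2 TMEM214 forms, DLST (75 nt, 16.3 points) and TMEM14C (78 nt, 6.3 points), a transporter needed for heme synthesis. That list too was chosen with results known. In DNA repair genes 4 of 72 rose and 0 fell, beside 3.18% of all members risen, and the median difference was 1.12 points against 1.08. They were POLM (171 nt) at 12.3, RAD51D (135 nt) at 8.5, RAD17 (104 nt) at 7.9 and RECQL4 (170 nt) at 5.7 points. In the other lists 0 of 15 were called in genes of the U2 snRNP and 3′ splice site recognition, 0 of 16 in hnRNP and PTB genes, 0 of 9 in CLK and SRPK kinase genes and 0 of 15 in snoRNA host genes. In SR protein and TRA2 genes 1 of 12 rose, in genes listed as SRSF2 targets 1 of 21, in those listed as U2AF1 targets 1 of 14, and in heme synthesis and mitochondrial iron genes 1 of 16 rose and 1 fell.

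SUGP1 loss alone called few exons. In SF3B1 WT 2 members were called (0.0197% of all events), both given above, with 404 at an unadjusted p under 0.05. In K700E 3 were called (0.0944% of all events), all downward, with 470 at an unadjusted p under 0.05: HMG20B (56 nt), a subunit of the LSD1-CoREST complex, by -44.0 points, SIRT7 (138 nt), a nucleolar sirtuin, by -36.8 and PUS1 (62 nt), a pseudouridine synthase, by -19.2. All 3 are exons that shifted between runs. HMG20B was at 5 to 8% in the first run of all 10 libraries and at 92 to 99% in the second run of 8, but at 6 and 13% in the second run of the K700E sgSUGP1 libraries. SIRT7 was at 12 to 24% in the first run and 79 to 97% in the second run of those 8, against 15 and 18%. With the first run alone the differences were 0.5 points for HMG20B and 3.0 for SIRT7, so the falls of these exons were present in the second run only. In 293T sgSUGP1 changed 2 members (0.0428% of all events; 345 at an unadjusted p under 0.05): COASY and an exon without a gene name that rose from a mean of 5.0 to 23.8%. The interaction of K700E and sgGPATCH8 called 0 members (308 at an unadjusted p under 0.05, lowest adjusted p 0.108, limma; 0.0295% of all events).

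U2AF1 S34F was compared with U2AF1 WT in the same way. With sgRenilla limma called 0 of 3866 members (425 at an unadjusted p under 0.05, lowest adjusted p 0.121), and 0.0023% of all events. With the replicate block, which pairs libraries of 1 number, it called 1. With the libraries numbered 1 left out it called 0 (547 at an unadjusted p under 0.05). With sgGPATCH8 it called 2 (468 at an unadjusted p under 0.05), against 0.023% of all events, and 48 with the replicate block, 25 upward and 23 downward, both of the 2 among them. Here the libraries numbered 1 correlated at 0.243, and those numbered 2 and 3 at 0.075 and 0.0862. Since the latter are under 0.1, same-numbered libraries were not taken as pairs, and the count depends on this choice. ALDOC (56 nt) was at 68, 57 and 60% in WT and 22, 28 and 29% in S34F (-35.3 points, adjusted p = 0.0318, limma). CAMK1, a calmodulin-dependent kinase, rose at an 89-nt exon from a mean of 3.3 to 14.0% (10.7 points, adjusted p = 0.0318, limma). With the libraries numbered 1 left out neither was called (0 members; 688 at an unadjusted p under 0.05, limma). The interaction of S34F and sgGPATCH8 called 0 (197 at an unadjusted p under 0.05, lowest adjusted p 0.882, limma; 0.0% of all events). ALDOC with sgRenilla was also lower in S34F, at 16, 13 and 12% against 37, 32 and 32%, and the 53-nt form had the smallest p there with a difference of -12.3 points that was not called.

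The gene lists chosen for these lines held few called members with sgGPATCH8 over the 7 backgrounds. In genes of the U2 snRNP and 3′ splice site recognition 0 of 20 tested members were called, in SR protein and TRA2 genes 0 of 12 and in the CLK and SRPK kinases 0 of 10. In hnRNP and PTB genes 1 of 17 rose, a 78-nt exon of PTBP1 by 5.8 points, and PTBP1 is also the 1 of 14 that rose among genes listed as U2AF1 targets. In DNA repair genes 1 of 74 rose, POLM (117 nt) by 8.9 points. In heme synthesis and mitochondrial iron genes 1 of 23 rose, ALAD by 9.2 points, the exon that fell with K700E. In snoRNA host genes 1 of 19 fell, SNHG1 by 8.0 points. That fall was absent from SF3B1 WT and K700E (0.2 and -0.2 points) and elsewhere ran from -5.3 points in U2AF1 S34F to -22.7 in SRSF2 P95H. In genes listed as SF3B1 targets 1 of 17 was called: ZDHHC16 (48 nt) fell by 10.4 points. In those listed as SRSF2 targets 2 of 18 rose, INTS3 by 7.5 and ITGB4 by 15.3 points. Neither rise was present in SRSF2 P95H (-0.7 and -4.0 points), against 18.3 and 32.7 points in SRSF2 WT. These counts of 0 to 2 are too small to set against the 2.13% of all members called in this comparison. No list is singled out by its count.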

How the data were processed

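The labels' protocols describe poly(A)-selected, strand-specific libraries read in pairs. The authors deposited, for 110818 events in each panel, the fraction of mRNA in the first isoform, with 2 decimals; for cassette exons the first junction leads to the exon and the second skips it, so the fraction was read as inclusion. Per the submitters' processing notes the build was hg19 (GRCh37) and the tools included RSEM 1.2.4, Bowtie, TopHat and TopHat2 2.0.8b, without their roles. The files hold no counts, so depth is unknown, and intervals that need it are not given. Exclusion of 2 rows without coordinates left 110816 events. Of the per-sample columns, 56 were not used. SRSF2 P95H sgGPATCH8 replicate 3 has 1 column for 2 samples and was counted once.

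In the SF3B1 panel the 2 runs of a library were averaged. Inclusion plus an offset of 0.01 was turned into a log2 ratio and fitted with limma 3.58.1 (R 4.3.3), by group means, with a variance prior that follows the level, over all events of a panel. The script was tested on simulated data with 200 changed events. Events needed a value in every library and group means neither all under 5% nor all over 95%. Names, exon lengths and sequences came from GENCODE 29 (GRCh38) by matching intron lengths exactly, without converting coordinates: 9040 of 9357 members (96.6%) were named. Groups were taken from sample titles. Named exons are, for each comparison, up to 10 of the largest rises and falls, 1 per gene, the 3 smallest p-values where none was called, all called members in the listed genes and all members in SF3B1 target genes; the other members named here were chosen after their values were seen. The values of a few members are not reported here. Members, gene lists and tests were chosen with earlier results of these data known. In the U2AF1 panel same-numbered libraries deviated together in 2 comparisons, S34F against WT with sgRenilla (correlations of 0.402, 0.152 and 0.158) and sgGPATCH8 in U2AF1 WT (0.357, 0.123 and 0.124). Every pair was over 0.1, so these were taken as pairs and their values with the replicate block are given beside the main ones. For S34F sgGPATCH8 the pairs numbered 1 were at 0.243 with WT sgGPATCH8 and 0.266 with S34F sgRenilla. Those numbered 2 and 3 were at 0.075 to 0.0894, under that limit. Alternatives were the offset, the filter, 1 missing value, a replicate block, single runs, and libraries or panels left out. Adjusted p-values are from limma with the Benjamini-Hochberg method.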

Additional observations from a re-analysis of the deposited data

Results flagged for a closer look

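In 41 groups of 4 libraries the lowest or highest value was compared with the others, and chance alone would flag about 1 in 20 such groups. In 293T with sgGPATCH8, the 48-nt exon of ZDHHC16 had 1 library at 29% with the others at 31%. The 78-nt exon of TMEM214 had 1 library at 1.0% with the others at 2%, a gap as small as the 2 decimals of the deposited fractions allow. The PPOX exon with the skipping junction chr1:161138973-161140199 (GRCh37) had 1 library of guide 17 at 91.0%, while the others were at 96, 97 and 97%. In the SRSF2 panel, the effect of P95H differed between sgGPATCH8 and sgRenilla by -25.7 points for NBEAL2 and by -26.7 points for HDAC7. Both passed the test of that difference itself (adjusted p = 0.0224 and 0.039, limma), and neither passed it with the replicate block.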

How the results depend on the processing

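Depth is unknown in these files, so differences of a few points near 0 or 100% inclusion could not be weighed against counting error, and p-values from 1 or 2 libraries a group borrow their spread from other groups. Of the alternative values of single named exons, 5438 kept direction and side of the threshold, 840 no longer passed, 17 newly passed and 2 reversed: HMG20B to 0.5 and SIRT7 to 3.0 points for sgSUGP1 in K700E with run 1 alone. The 95 exons of the comparison over 7 backgrounds became 148 without the U2AF1 libraries numbered 1, 48 without the SRSF2 panel, 102, 113 and 91 without the SF3B1, U2AF1 or 293T panel, and 83 to 113 with any 1 library left out. The cause of these and the following changes was not tested, except that leaving out libraries leaves fewer samples. The single sgRenilla library of SF3B1 WT and that of K700E were never left out. Ranges with 1 library left out, here over 34 libraries, do not cover them.

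In the SF3B1 panel, the 194 exons of K700E became 8 with run 1 alone, 28 with run 2 alone and 0 without the sgSUGP1 libraries, and 19 to 42 with any 1 library left out, lowest without K700E sgSUGP1 replicate 1. K700E with sgRenilla (0) gave 2 with an offset of 0.05, 10 without the filter on group means, 1 with run 2 alone and 2 with a value needed in both runs. The 2 exons of sgSUGP1 in WT became 1 with the larger offset, 8 without the filter, 0 with 1 missing value allowed, 0 with either run alone, 6 with both runs needed and 0 to 0 with 1 library left out. The 3 exons of sgSUGP1 in K700E became 7 without the filter, 1 with a missing value allowed, 0 with run 1 alone, 52 with run 2 alone, 9 with both runs needed and 0 to 0 with 1 library left out. sgGPATCH8 in K700E (0) gave 3 without the filter, and its interaction with K700E (0) gave 5 with run 2 alone.

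In the SRSF2 panel, counts with any 1 library left out became 8 to 12 for P95H with sgRenilla (60), 105 to 118 with sgGPATCH8 (221), 11 to 14 for sgGPATCH8 in WT (25), 126 to 148 in P95H (251) and 0 to 1 for the interaction (2). The interaction count also became 8 with the larger offset, 29 without the filter and 1 with a missing value allowed. In the U2AF1 panel, S34F with sgGPATCH8 (2) gave 4 with the larger offset, 16 without the filter, 0 without the libraries numbered 1 and 0 to 1 with 1 library left out. S34F with sgRenilla (0) gave 7 without the filter and 0 to 1 with 1 library left out, sgGPATCH8 in U2AF1 WT (0) gave 1 and 0 to 1, and sgGPATCH8 in S34F (1) gave 2 and 0 to 0, and 0 without the libraries numbered 1. In 293T, sgSUGP1 (2) gave 8 without the filter and sgGPATCH8 (4) gave 9, and both gave 0 to 0 with 1 library left out.

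With replicate number as a replicate block, calls became 80 for K700E, 0 for sgSUGP1 in SF3B1 WT and 0 in K700E, 8 for P95H with sgRenilla, 14 for sgGPATCH8 in SRSF2 WT, 0 for the P95H interaction, 1 for S34F with sgRenilla, 48 with sgGPATCH8, 2 for sgGPATCH8 in U2AF1 WT and 2 in S34F, 0 for sgSUGP1 and 0 for sgGPATCH8 in 293T, and 120 over the 7 backgrounds, with 94 of the 95 among them. Same-numbered libraries were not taken as pairs in the SF3B1, SRSF2 and 293T panels, where their deviations correlated at -0.0483 to 0.0329, nor in U2AF1 comparisons with S34F sgGPATCH8, although each U2AF1 library correlated best with one of its own number, a hint from the data and not from the design.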
